A study of Mus musculus with 9 samples.

Results

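Gata4 and Gata6 encode zinc finger transcription factors that bind the GATA motif, and both are expressed in the epithelium of the early pancreatic bud. They were chosen by name, as the rows of the deposited table whose symbol is Gata4 or Gata6. These are 2 of the 18541 genes in the table, each measured by 1 probe (A_52_P4201 for Gata4 and A_52_P176245 for Gata6), and their levels were compared across 3 genotypes. RNA came from dorsal pancreatic epithelium dissected by hand from mouse embryos at e12.5 and was measured on 1-colour Agilent arrays, with 3 samples per genotype and the pancreata of 3 embryos pooled in each sample. The samples labelled double heterozygous are Sox9fl/+; Foxa3-Cre; Pdx1-/+, those labelled Sox9 heterozygous are Sox9fl/+; Foxa3-Cre, and those labelled Pdx1 heterozygous are Pdx1-/+, a knock-in of LacZ into 1 Pdx1 allele (Pdx1LacZko). The 3 genotypes are littermates per the series text. Cre recombinase is driven here by Foxa3 sequence, so the floxed Sox9 allele can be lost only in cells with a history of that transgene's activity. The Pdx1 heterozygotes carry no Cre by label, so loss of a Sox9 allele and presence of Cre cannot be told apart when they are the comparison group. Wild-type samples were not analysed here, and the question addressed is therefore what the second heterozygous loss adds to the first.

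GATA4 and GATA6 act in parallel in the mouse pancreatic bud. Deletion of both genes in mouse pancreatic progenitors leaves almost no pancreas, whereas loss of either gene alone has a milder effect, and heterozygous GATA6 mutations are a known cause of pancreatic agenesis in humans. Later in development Gata4 becomes restricted to acinar cells, while Gata6 is retained in endocrine cells. Both genes are also expressed outside the pancreas, in the epithelium of stomach and intestine, in the heart and in parts of the mesothelium and mesenchyme, so RNA of neighbouring tissue can contribute to their signal. In these bulk samples fewer cells of a type and less RNA per cell cannot be told apart.

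The values are processed intensities on a linear scale, and tests were made on their log2 with limma over all 9 arrays. Array medians lay between 347 and 353. Sox9 signal was 292, 328 and 381 in double heterozygotes, 294, 294 and 325 in Sox9 heterozygotes and 239, 198 and 234 in Pdx1 heterozygotes. Pdx1 signal was 1203, 1143 and 1352 in double heterozygotes, 1316, 1573 and 1502 in Sox9 heterozygotes and 1132, 1098 and 1080 in Pdx1 heterozygotes. Pdx1 was thus lowest in arrays whose label names a Pdx1 loss, with a small overlap, but Sox9 was not low in the arrays whose label names a Sox9 loss. Whether either probe lies in the altered part of its gene was not analysed here, so Sox9 does not check the labels, and genotypes are named below as labelled. One array stood apart: double-heterozygote replicate 3, whose title names both replicates 3 and 4, correlated with the other arrays at 0.980 to 0.992 over all genes, against 0.990 to 0.996 between the others. Results that rest on the double heterozygotes are therefore given with and without it.

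Gata4 signal was higher in the double heterozygotes than in either single heterozygote on every array, although neither difference passed the test over all genes. It was 190, 207 and 293 in the double heterozygotes, against 110, 150 and 156 in the Sox9 heterozygotes and 135, 133 and 118 in the Pdx1 heterozygotes. The lowest double-heterozygote array lay above the highest array of both other genotypes, so the groups did not overlap. Across all genes, 7.03% had all 3 double-heterozygote arrays above all 6 others, 18.6% above the Sox9 and 11.6% above the Pdx1 heterozygotes, with 16.7% and 11.4% below them. The means were 230.0 ± 55.2 in the double heterozygotes, 139 ± 25.01 in the Sox9 heterozygotes and 129 ± 9.29 in the Pdx1 heterozygotes (SD, n = 3 each). In the order of levels the Sox9 and Pdx1 heterozygotes are neighbours whose arrays overlap.

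**Figure D1:**
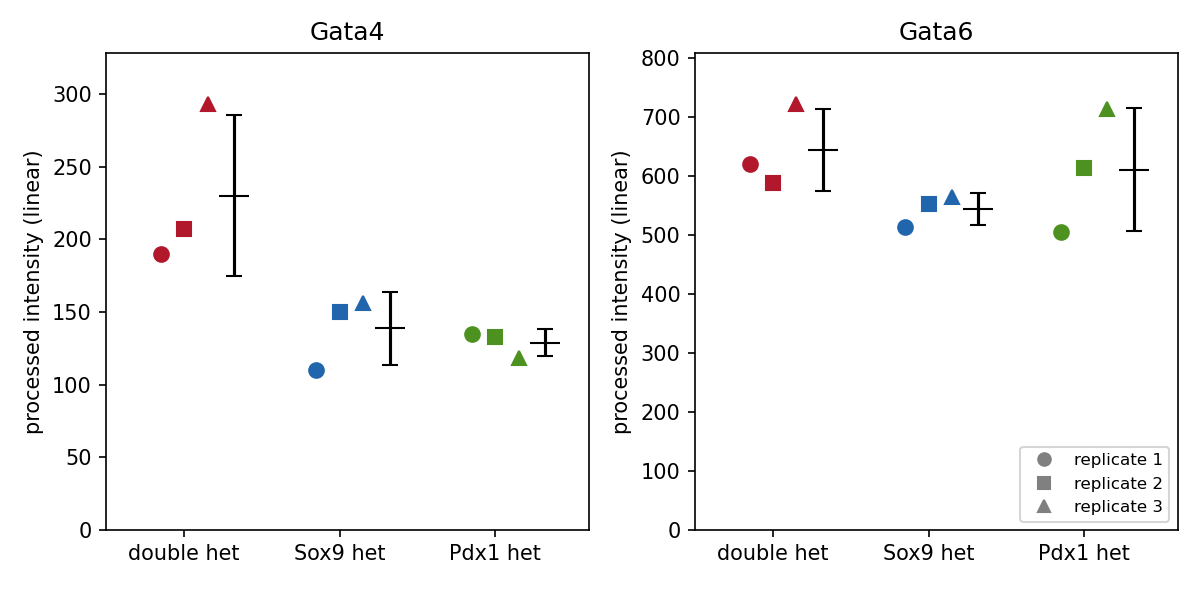
Processed intensity (linear scale) of Gata4 and Gata6 in each array, by genotype, with symbols for the replicate number and bars for mean ± SD of 3 arrays. All 3 double-heterozygote arrays lie at or above 190 for Gata4 and the other 6 at or below 156, whereas Gata6 arrays of double and Pdx1 heterozygotes overlap.

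Against the Sox9 heterozygotes, Gata4 differed by 0.72 ± 0.18 on the log2 scale (SE), a 1.65-fold difference with a 95% confidence interval of 1.25 to 2.17. Its adjusted p in the limma fit was 0.1004 (Benjamini-Hochberg over all genes, unadjusted p 0.00257), which did not pass 0.05. In this comparison 57 genes passed, 0.307% of those tested (0.0917% higher and 0.216% lower), while 27.4% had an unadjusted p under 0.05. Gata4 ranked 87th of 18541 genes by the size of its positive log2 difference. The authors' deposited table gives the same log2 ratio with an FDR of 1.95e-05, in a column where 23.1% of genes lie under 0.05. The sources used here do not say how that FDR was computed. An exact permutation test over the 6 arrays gave p = 0.1 (two-sided), the smallest that 3 arrays against 3 allow.

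Against the Pdx1 heterozygotes, the Gata4 difference was 0.81 ± 0.18 on the log2 scale (SE), or 1.76-fold with a 95% confidence interval of 1.33 to 2.32. The limma adjusted p was 0.133 (unadjusted p 0.00116), and 20 genes passed in this comparison, 0.108% of those tested (0.0378% higher and 0.0701% lower), while 16.1% had an unadjusted p under 0.05. By size of positive difference Gata4 ranked 54th. The authors' deposited table lists an FDR of 1.46e-05 for it, with 17.3% of genes under 0.05 in that column. The exact two-sided permutation p was again 0.1. Both comparisons use the same 3 double-heterozygote arrays, so they are not independent of each other.

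Replicate 3 of the double heterozygotes carried the highest Gata4 signal of all arrays, 293. Without it the log2 difference was 0.53 ± 0.15 against the Sox9 heterozygotes (limma adjusted p 0.236) and 0.63 ± 0.15 against the Pdx1 heterozygotes (adjusted p 0.246). The other 2 double-heterozygote arrays, at 190 and 207, still lay above all arrays of the single heterozygotes. Gata4 is also a dim probe: 33.3% of the genes had a lower mean log2 signal, and the first quartiles of the arrays lay between 117 and 122, close to its level in the single heterozygotes. No background or detection values were used here, so how far the single-heterozygote signal stands above background was not tested.

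Gata4 arrays of Sox9 and Pdx1 heterozygotes overlapped. Their log2 difference was 0.09 ± 0.18 (SE), with a 95% confidence interval of -0.30 to 0.49 and a limma adjusted p of 0.916. Between these genotypes 43 genes passed, 0.232% of those tested (0.151% higher and 0.0809% lower), and 6.29% had an unadjusted p under 0.05. Of all genes, 6.54% had all 3 Sox9-heterozygote arrays above and 6.04% all 3 below the Pdx1 heterozygotes, whereas the Gata4 arrays overlapped. The interval still allows a difference of up to 1.41-fold in favour of the Sox9 heterozygotes.

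Gata6 gave a different picture. Its signal was 620, 589 and 722 in the double heterozygotes, 514, 553 and 565 in the Sox9 heterozygotes and 505, 614 and 714 in the Pdx1 heterozygotes. The double heterozygotes lay above all 3 Sox9 heterozygotes, as 18.6% of all genes did, but overlapped with the Pdx1 heterozygotes. The means were 644 ± 69.6 in the double heterozygotes, 544 ± 26.7 in the Sox9 heterozygotes and 611 ± 105 in the Pdx1 heterozygotes (SD, n = 3 each). Neighbours in the order of levels, double over Pdx1 and Pdx1 over Sox9 heterozygotes, did not differ beyond their spread. With 59.6% of genes below it in mean log2 signal, Gata6 is brighter on these arrays than the middle of the table.

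Against the Sox9 heterozygotes, the Gata6 difference was 0.24 ± 0.13 on the log2 scale (SE, limma adjusted p 0.244), a 1.18-fold difference with a 95% confidence interval of 0.967 to 1.44. The authors' deposited table lists an FDR of 0.0574. The exact two-sided permutation test gave p = 0.1. Without double-heterozygote replicate 3 the difference was 0.15 (adjusted p 0.562).

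Against the Pdx1 heterozygotes, Gata6 differed by 0.08 ± 0.13 (SE), with a 95% confidence interval of 0.868 to 1.29 as a fold and a limma adjusted p of 0.742. The authors' deposited table lists an FDR of 0.542. The exact permutation p was 0.6 (two-sided). The sign rested on single arrays: it was -0.0015 without double-heterozygote replicate 3 and -0.05 without Pdx1-heterozygote replicate 1. The Sox9 over Pdx1 heterozygote difference was -0.15 ± 0.13 (SE, adjusted p 0.867, exact p = 0.5).

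**Figure D2:**
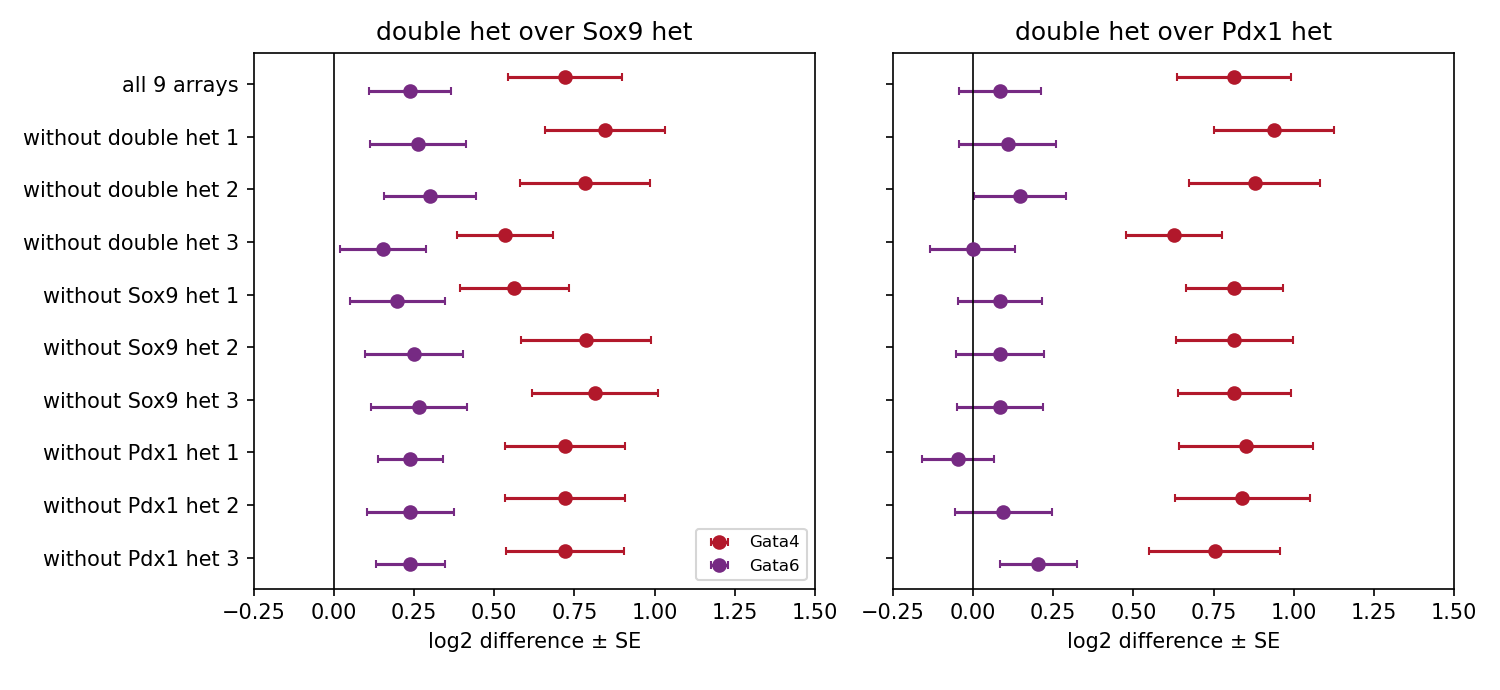
Log2 difference ± SE of Gata4 and Gata6 in double heterozygotes over Sox9 heterozygotes (left) and over Pdx1 heterozygotes (right), with all 9 arrays and with each array left out in turn. Gata4 stays between 0.53 and 0.94 and Gata6 between -0.05 and 0.30.

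Whether the 2 genes moved unequally was asked with the difference of their log2 signals within each array. The size of that difference depends on the 2 probes and is not read as a ratio of transcripts, so only its shift between genotypes is compared. It was -1.71, -1.51 and -1.30 in double heterozygotes, -2.22, -1.88 and -1.86 in Sox9 heterozygotes and -1.90, -2.21 and -2.60 in Pdx1 heterozygotes. All 3 double-heterozygote values lay above the other 6, which means that Gata4 stood higher relative to Gata6 in these arrays. The shift was 0.48 against the Sox9 heterozygotes and 0.73 against the Pdx1 heterozygotes, each with an exact two-sided permutation p of 0.1, the smallest possible. Between Sox9 and Pdx1 heterozygotes the shift was 0.25 (exact p = 0.3). Left-out arrays moved the first shift between 0.36 and 0.58 and the second between 0.55 and 0.90.

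**Figure D3:**
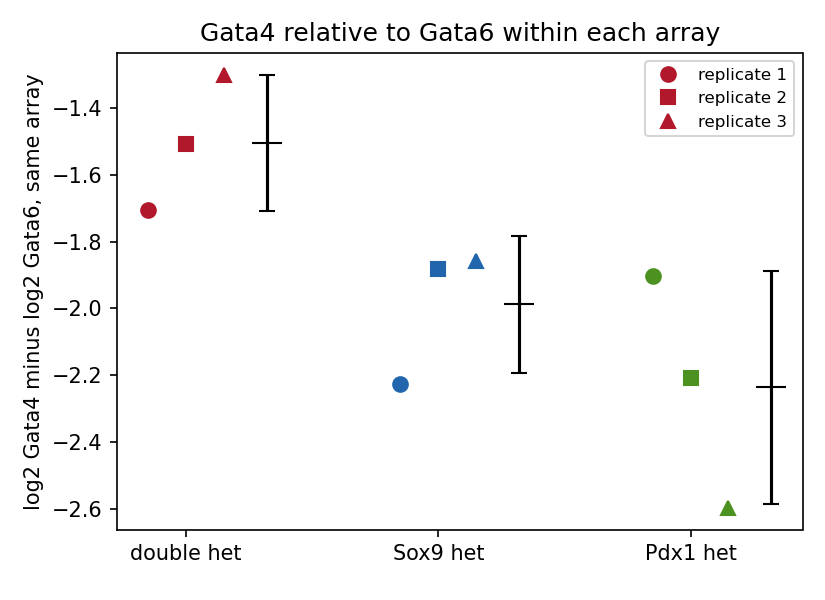
Log2 signal of Gata4 minus that of Gata6 within each array, by genotype, with symbols for the replicate number and bars for mean ± SD of 3 arrays. The double-heterozygote arrays run from -1.71 to -1.30 and the other 6 from -2.60 to -1.86.

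Other genes of the GATA family did not pass in any comparison. The list holds 7 measured genes, Gata1 to Gata6 and Trps1, and 0 passed the limma fit in either direction against 0.307%, 0.108% and 0.232% of all genes in the 3 comparisons. The median log2 difference of the 7 genes was 0.02 against the Sox9 heterozygotes and 0.03 against the Pdx1 heterozygotes, beside -0.00092 and 0.0096 over all genes. Gata4 had the largest positive difference of the 7 in both comparisons with double heterozygotes.

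Gata5, also a GATA factor of endoderm and heart, had signals of 98, 118 and 128 in double heterozygotes, 128, 101 and 110 in Sox9 heterozygotes and 100, 121 and 115 in Pdx1 heterozygotes. These overlap fully and lie low on the array, with log2 differences of 0.02 and 0.03. Gata1, the factor of red cell and megakaryocyte development, had 143, 124 and 215 in double heterozygotes against 144, 112 and 123 in Sox9 heterozygotes and 98, 136 and 136 in Pdx1 heterozygotes. Here too double-heterozygote replicate 3 was the highest array. Gata2, a factor of blood stem cells, differed by -0.28 and 0.02, and Gata3, a factor of T cells and sympathetic neurons, by -0.31 and -0.28 on the log2 scale against Sox9 and Pdx1 heterozygotes. Gata3 lies under 0.05 against the Sox9 heterozygotes in the authors' deposited table (FDR 0.0301), whereas its limma adjusted p was 0.234.

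Trps1 encodes an atypical GATA protein that represses transcription. Its signal was 654, 547 and 505 in double heterozygotes, 643, 781 and 752 in Sox9 heterozygotes and 920, 790 and 825 in Pdx1 heterozygotes. All 3 double-heterozygote arrays lay below the Pdx1 heterozygotes, as 11.4% of all genes did, and the groups overlapped with the Sox9 heterozygotes. The log2 difference against the Pdx1 heterozygotes was -0.58 ± 0.12 (SE, limma adjusted p 0.111), and the authors' deposited table gives it an FDR of 0.00013.

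**Figure D4:**
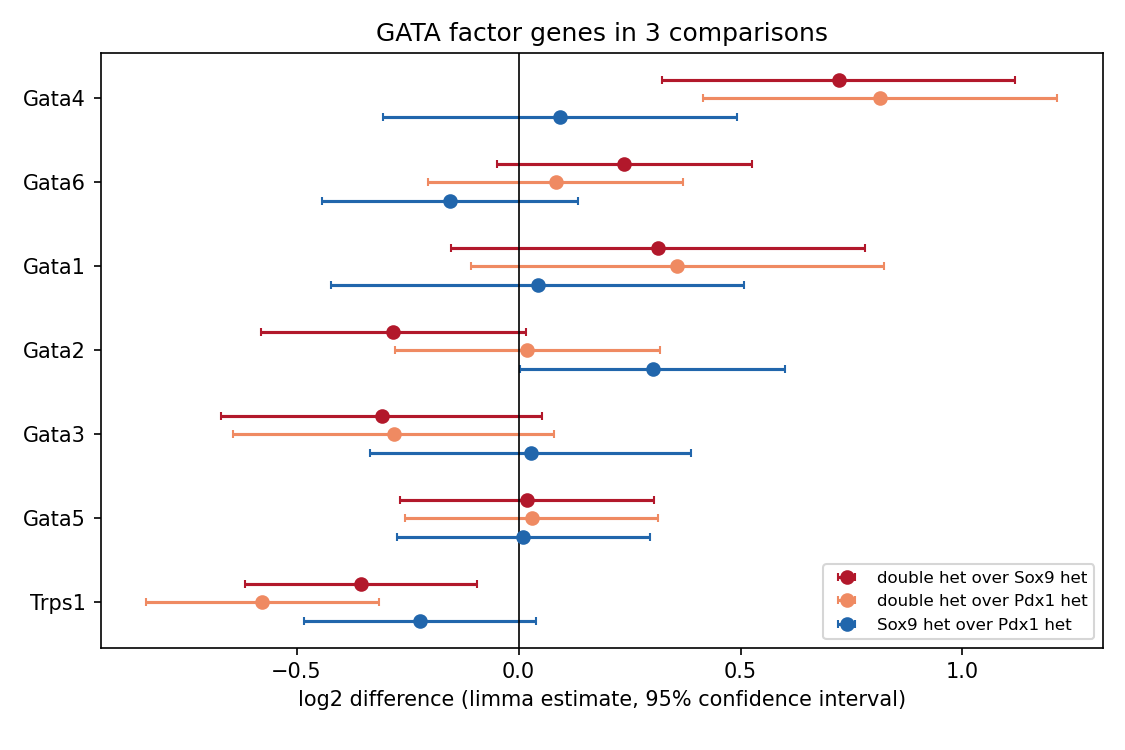
Log2 differences of the 7 measured GATA factor genes in 3 comparisons, with 95% confidence intervals from the limma fit. The intervals of Gata4 lie above 0 in both comparisons of the double heterozygotes, those of Trps1 lie below 0 in the same comparisons, and all 3 intervals of Gata6 include 0; adjusted over all genes, none passed.

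Cofactors of GATA proteins were measured beside them. Of 6 genes, 0 passed in any comparison, and their median log2 difference was -0.08 in both comparisons with double heterozygotes. Zfpm1 (Fog1), which binds the N-terminal zinc finger of GATA factors, was bright and near level, with log2 differences of -0.08 and 0.03 against the Sox9 and Pdx1 heterozygotes. Zfpm2 (Fog2), its paralog and a partner of GATA4 in the heart, had 162, 147 and 124 in double heterozygotes, against 212, 166 and 163 in Sox9 heterozygotes and 157, 176 and 163 in Pdx1 heterozygotes. Its log2 difference was -0.32 against the Sox9 heterozygotes (limma adjusted p 0.157), and the authors' deposited table lists an FDR of 0.013. Ep300 and Crebbp, the acetyltransferase coactivators, differed by 0.46 and -0.28, Med1, a Mediator subunit, by -0.07, and Lmcd1, a GATA6 repressor, by 0.09 in the same comparison.

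Among 18 pancreatic progenitor factors and markers, 1 passed the limma fit, beside 0.307%, 0.108% and 0.232% of all genes in the 3 comparisons. Mnx1, a homeobox factor of the dorsal bud, had 250, 336 and 362 in double heterozygotes, against 607, 860 and 813 in Sox9 heterozygotes and 238, 284 and 212 in Pdx1 heterozygotes. It fell against the Sox9 heterozygotes, with a log2 difference of -1.27 ± 0.18 (SE, limma adjusted p 0.0294), and was higher in Sox9 than in Pdx1 heterozygotes by 1.63 (adjusted p 0.0125). This differs from Gata4, whose signal was highest in double heterozygotes. Without double-heterozygote replicate 3 the Mnx1 difference against the Sox9 heterozygotes was larger, at -1.37, with fewer arrays and a limma adjusted p of 0.0537, and 0 of the 18 genes passed. The median of the list was 0.12 against Sox9 and 0.18 against Pdx1 heterozygotes.

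By the FDR of the authors' deposited table, 4 progenitor genes were higher and 1 lower against the Sox9 heterozygotes, and 4 were higher and 0 lower against the Pdx1 heterozygotes. Of all genes, 12% were higher and 11.1% lower in the first comparison, and 8.31% higher and 8.94% lower in the second. Onecut1, Prox1 and Cpa1 were among the higher ones against the Sox9 heterozygotes. Onecut1, a factor of early pancreatic progenitors, had 4602, 3829 and 4931 in double heterozygotes, 2949, 3361 and 3374 in Sox9 heterozygotes and 4138, 4025 and 3991 in Pdx1 heterozygotes. Its log2 difference against the Sox9 heterozygotes was 0.46, with a limma adjusted p of 0.0938. Prox1, a homeobox factor of foregut endoderm, was also under 0.05 against the Pdx1 heterozygotes in the authors' deposited table, at log2 ratios of 0.36 and 0.37 (FDR 0.00445 and 0.00145).

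Hedgehog signalling was described because Shh is kept off in the normal pancreatic bud and comes on in mouse progenitors that lack both Gata4 and Gata6. Of 15 measured pathway genes, 0 passed the limma fit in any comparison, and Shh itself was not analysed here. Their median log2 difference was 0.12 in the comparison with Sox9 heterozygotes and 0.08 in that with Pdx1 heterozygotes. Smo, the signal transducer of the pathway, had 561, 656 and 610 in double heterozygotes, against 442, 493 and 540 in Sox9 heterozygotes and 469, 483 and 523 in Pdx1 heterozygotes. Its double-heterozygote arrays lay above all 6 others, as 7.03% of all genes did, and its log2 difference was 0.31 in both comparisons (limma adjusted p 0.112 and 0.203).

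The pathway's target genes were dim. Gli1 had 106, 104 and 160 in double heterozygotes, against 94, 94 and 98 in Sox9 heterozygotes and 101, 114 and 117 in Pdx1 heterozygotes, and the receptor gene Ptch1 had 117, 113 and 171 in double heterozygotes, against 107, 117 and 109 in Sox9 heterozygotes and 107, 102 and 123 in Pdx1 heterozygotes. In both genes double-heterozygote replicate 3 was the highest of the 9 arrays, as it was for Gata4. By the FDR of the authors' deposited table, 4 hedgehog genes were higher (Gli1, Gli3, Smo and Sufu) and 2 lower (Disp1 and Hhat) against the Sox9 heterozygotes, where 12% of all genes were higher and 11.1% lower. Against the Pdx1 heterozygotes 3 were higher (Hhip, Ptch1 and Smo) and 3 lower (Dhh, Disp1 and Hhat) in the authors' deposited table, where 8.31% of all genes were higher and 8.94% lower.

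Gata4 is later an acinar and Gata6 an endocrine gene, so both cell types were counted. Of 22 acinar genes, 1 was lower and 0 higher against the Sox9 heterozygotes in the limma fit, beside 0.216% lower and 0.0917% higher of all genes. This was Cpb1, a carboxypeptidase gene, with 97, 120 and 87 in double heterozygotes, 167, 155 and 178 in Sox9 heterozygotes and 88, 98 and 96 in Pdx1 heterozygotes (log2 difference -0.73 against the Sox9 heterozygotes, adjusted p 0.0450). Cpb1 and the elastase gene Cela1 were higher in Sox9 than in Pdx1 heterozygotes, by 0.83 and 1.23 (adjusted p 0.0288 and 0.0407). The acinar median was -0.19 against Sox9 and 0.18 against Pdx1 heterozygotes, whereas Gata4 lay above 0 in both. Of 19 endocrine genes 0 passed, with medians of -0.21 and -0.19. Of these, 6 had all 3 double-heterozygote arrays below the Sox9 heterozygotes and 0 above, beside 16.7% and 18.6% of all genes. Against the Pdx1 heterozygotes it was 8 and 0, beside 11.4% and 11.6%. By the FDR of the authors' deposited table, 6 and 7 endocrine genes were lower and 0 higher in the 2 comparisons. Of all genes, 11.1% and 8.94% were lower there, and 12% and 8.31% higher. Without double-heterozygote replicate 3 the Cpb1 difference against the Sox9 heterozygotes was -0.63 (limma adjusted p 0.0933), and 0 acinar genes passed in the comparisons with double heterozygotes.

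The dissected tissue carried epithelial markers throughout. Of 12 such genes, 0 fell in the dimmest 25% of the table, and their summed signal was 150720 to 157112 in double heterozygotes, 145531 to 146184 in Sox9 heterozygotes and 135895 to 153687 in Pdx1 heterozygotes. Krt19, a keratin gene, rose against the Sox9 heterozygotes by 0.84 on the log2 scale (limma adjusted p 0.0341), where 0.307% of all genes passed. Without double-heterozygote replicate 3 it differed by 0.72 (adjusted p 0.0668), and 0 epithelial genes passed.

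Markers of other tissues that express Gata4 or Gata6, or lie near the bud, moved with the double heterozygotes in part. Liver markers summed to 235831 to 262808 in double heterozygotes, 214155 to 219973 in Sox9 heterozygotes and 201218 to 212228 in Pdx1 heterozygotes, without overlap. The brightest liver gene, Ambp, was near level between double and Sox9 heterozygotes, whereas Afp had 41591, 34713 and 50311 against 26611, 23400 and 23792. Against the Sox9 heterozygotes, 8 liver genes had all 3 double-heterozygote arrays above and 3 below, beside 18.6% and 16.7% of all genes. Against the Pdx1 heterozygotes these were 8 and 1, beside 11.6% and 11.4%. Of 18 liver genes 1 passed against the Sox9 heterozygotes, where 0.307% of all genes did. This was Itih2, a plasma protein gene, at 854, 839 and 1387 in double heterozygotes, 314, 351 and 493 in Sox9 heterozygotes and 515, 560 and 628 in Pdx1 heterozygotes. Alb, the albumin gene, had 1125, 572 and 881 in double heterozygotes, 412, 314 and 271 in Sox9 heterozygotes and 237, 333 and 309 in Pdx1 heterozygotes. Among the double heterozygotes the liver sum was 254060, 235831 and 262808, highest in replicate 3, the array with the most Gata4 signal, as was Itih2, whereas Alb was highest in replicate 1. Nearly all of the rise of the liver sum from replicate 1 to replicate 3 is Afp. The median log2 difference of the liver list was 0.26 and 0.22, and without double-heterozygote replicate 3 it was 0.26 and 0.25. Itih2 then differed by 1.16 against the Sox9 heterozygotes, beside 1.40 with all arrays, and did not pass (limma adjusted p 0.0591).

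Intestinal markers summed to 9289 to 21002 in double heterozygotes, 6905 to 7950 in Sox9 heterozygotes and 7294 to 8125 in Pdx1 heterozygotes. Stomach markers summed to 3941 to 4746 in double heterozygotes, 3314 to 3815 in Sox9 heterozygotes and 3886 to 4133 in Pdx1 heterozygotes. Of 19 intestinal and 12 stomach genes 0 passed, and 8 and 7 of them lay in the dimmest 25% of the table. The median log2 difference against Sox9 and Pdx1 heterozygotes was 0.13 and 0.16 for the intestinal genes. For the stomach genes it was -0.0024 and 0.03, near the medians of all genes. The genes differed in which double-heterozygote array was high. Cdx2, the intestinal identity factor, had 85, 216 and 465 in double heterozygotes, against 72, 77 and 67 in Sox9 heterozygotes and 75, 76 and 94 in Pdx1 heterozygotes, with replicate 3 highest, as for Gata4. Nkx6-3, a homeobox factor of the distal stomach, had 154, 142 and 400 in double heterozygotes, against 108, 91 and 94 in Sox9 heterozygotes and 130, 133 and 119 in Pdx1 heterozygotes. Prap1, a gene of the gut lining, had 10878, 869 and 457 in double heterozygotes, against 190, 127 and 116 in Sox9 heterozygotes and 196, 301 and 236 in Pdx1 heterozygotes, with replicate 1 highest. The intestinal sum of 21002 was that of replicate 1, so much of it is Prap1. Cdx2, Nkx6-3, Prap1, Alb, Afp and Ambp were chosen after their values were seen.

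Mesothelial and heart markers mark mesoderm that expresses Gata4, and their sums overlapped between double and Pdx1 heterozygotes, whereas the heart sums of double heterozygotes lay just above those of Sox9 heterozygotes. The sums were 7490 to 8700 in double heterozygotes, 7410 to 7897 in Sox9 heterozygotes and 7256 to 8899 in Pdx1 heterozygotes for 11 mesothelial genes. For 11 heart genes they were 3511 to 4524 in double heterozygotes, 3358 to 3497 in Sox9 heterozygotes and 3226 to 3942 in Pdx1 heterozygotes. Among the double heterozygotes the mesothelial sum was 7490, 7907 and 8700, highest in replicate 3, the array with the most Gata4 signal, and the heart sum was 4184, 3511 and 4524, highest there too. Most of the mesothelial rise is 1 gene, Aldh1a2, at 1179, 1512 and 2232. The median log2 difference of the mesothelial list was -0.12 and -0.08 against the Sox9 and Pdx1 heterozygotes. The heart genes Tbx5, Nppa, Nppb and Myh6 lay in the dimmest 25% of the table. Hand1, a factor of heart and gut mesoderm, had 382, 425 and 1181 in double heterozygotes, against 237, 254 and 316 in Sox9 heterozygotes and 386, 409 and 408 in Pdx1 heterozygotes. Hand1 is part of the heart sum. It alone places replicate 3 above replicate 1 there, and all double-heterozygote heart sums above those of the Sox9 heterozygotes. Hand1 and Aldh1a2 were likewise chosen after their values were seen.

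The remaining marker lists gave 0 genes that passed. Mesenchyme and smooth muscle summed to 99902 to 103728 in double heterozygotes, 95786 to 110733 in Sox9 heterozygotes and 99262 to 108237 in Pdx1 heterozygotes (17 genes), and the sums of the 12 endothelial and 12 white blood cell genes also overlapped. The 12 erythroid genes summed to 160619, 159340 and 264036 in double heterozygotes, 169301, 163832 and 182343 in Sox9 heterozygotes and 149270, 159397 and 232670 in Pdx1 heterozygotes. These ranges overlap, and the highest sum was in double-heterozygote replicate 3, the array with the most Gata4 signal. Among the double heterozygotes, the stomach (4746), epithelial (157112), progenitor (162325) and hedgehog (9970) sums were also highest in replicate 3. Several further lists did not peak there. Among the double heterozygotes, mesenchymal, endothelial and white blood cell sums were highest in replicate 2, and intestinal and neural sums in replicate 1. Endothelial, white blood cell and neural sums were lowest in replicate 3. The intestinal sum was lowest there too, but only through Prap1. The share of all genes that peak in replicate 3 was not computed. Neuron and neural crest markers (12 genes) summed to 3002 to 3218 in double heterozygotes, 4026 to 4320 in Sox9 heterozygotes and 3495 to 4223 in Pdx1 heterozygotes, opposite in direction to Gata4 and without overlap. Of the 12 genes, 5 had all 3 double-heterozygote arrays below the Sox9 heterozygotes, beside 16.7% of all genes. Against the Pdx1 heterozygotes it was also 5, beside 11.4%. The part that liver, gut, red blood, mesodermal or neural cells have in the Gata4 difference was not tested.

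**Figure D5:**
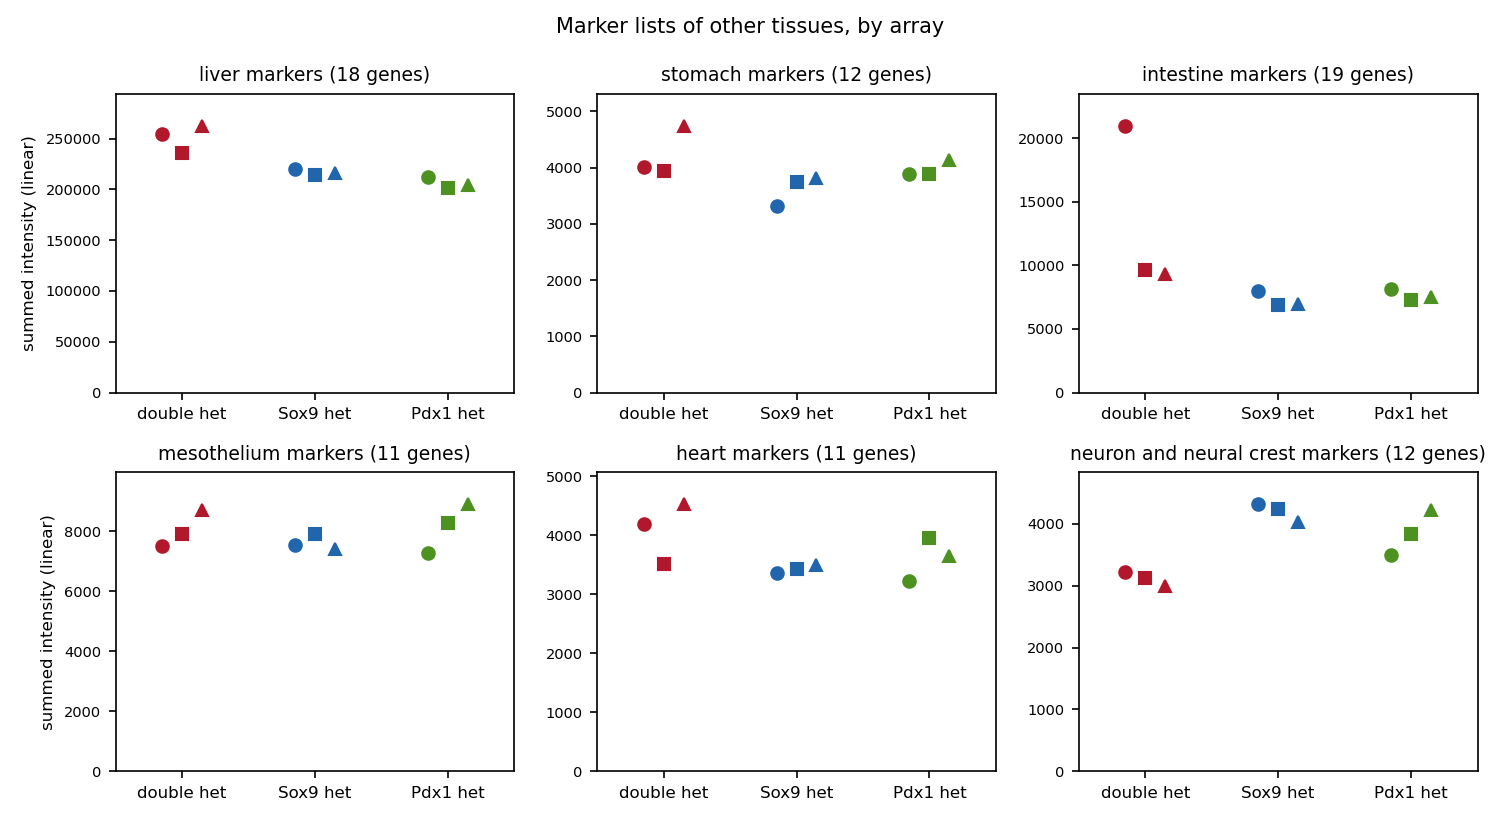
Summed processed intensity (linear scale) of 6 marker lists in each array, by genotype, with circle, square and triangle for replicates 1, 2 and 3. Liver sums of double heterozygotes (235831 to 262808) lie above and neural sums (3002 to 3218) below all other arrays, while mesothelial sums overlap.

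The genes most like Gata4 over the 9 arrays were ranked by Pearson's r of log2 signal among 13906 genes with a mean at or above the 25th percentile. The 5 highest were Bzw2, a gene of translation control (0.987), Prps2, a nucleotide synthesis enzyme gene (0.987), the MAP kinase kinase gene Map2k5 (0.986), the F-box gene Fbxo36 (0.985) and the mitochondrial thioredoxin reductase gene Txnrd2 (0.984). Bzw2 had 8529, 8842 and 10284 in double heterozygotes, 6589, 7408 and 7820 in Sox9 heterozygotes and 7435, 7572 and 6719 in Pdx1 heterozygotes, so it shares with Gata4 both the high double heterozygotes and the highest value in replicate 3. Within genotypes, after each genotype's mean was removed, these 5 genes had r of 0.949 to 0.984 with Gata4. That is no separate evidence, as the genes were chosen by r over the same arrays. At the other end were Gprasp1, a receptor sorting gene (-0.984), the myosin gene Myh14 (-0.983) and the phosphatase subunit gene Ppp4r3b (-0.981). None of these 8 genes passed the limma fit in any comparison, and such r values are the extremes of a search over many genes in 9 arrays.

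For Gata6 the 5 most alike were Adcyap1r1, the PACAP receptor gene (0.965), the histone variant gene Macroh2a2 (0.961), Tsc22d2 (0.945), Fam83d (0.945) and the glycine decarboxylase gene Gldc (0.941). The 3 least alike were Gimap5 (-0.942), Mbd6 (-0.930) and the fatty acid elongase gene Elovl7 (-0.926). Adcyap1r1 had 328, 339 and 408 in double heterozygotes, 260, 293 and 301 in Sox9 heterozygotes and 276, 325 and 375 in Pdx1 heterozygotes, and its lowest and highest Pdx1-heterozygote arrays were those of Gata6. No gene stood on the list of both factors. Gata4 and Gata6 themselves had an r of 0.474 over the 9 arrays and of 0.314 within genotypes.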

How the data were processed

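Processed intensities of 18541 Agilent probes, 1 per gene, were taken from the deposited series table, whose columns carry the sample accessions. The intensities are linear whole numbers; per the labels the arrays were labelled with Cy3, and limma is named in the submitters' processing notes without a role or version. The sources used here do not state the background correction, the normalization between arrays or the choice of probe. The log2 ratios and FDR values (q-values) in the authors' deposited table are per the file headers; the log2 ratios equal differences of genotype means of log2 intensity within 1e-07 for all 18541 genes, so samples and columns match. A further 9 columns of values per array, whose names match no label, were not used.

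Log2 intensities were fitted with lmFit and eBayes of limma 3.58.1 (R 4.3.3), with 1 mean per genotype over all 9 arrays, Benjamini-Hochberg adjustment over all genes and a threshold of 0.05. Intervals are 95% intervals of the moderated fit. The fit was tested on simulated data. Single values were also compared by exact permutation. Lists were described by counts and medians, without a set test. Symbols were updated through the Entrez number for 17183 genes with the RefSeq table of GRCm38.p6. The labels do not say more than that replicates are biological, each of 3 pooled embryos, and the number of arrays limits precision. Members, lists and the naming rule were chosen with earlier results of these data known. Named were Gata4, Gata6, Sox9, Pdx1, the GATA and cofactor genes, up to 4 members per list that passed, members needed for a count of progenitor or hedgehog genes, and the 5 most and 3 least alike genes. Alternatives were other scalings, a filter on dim probes, the replicate block, fits of 2 genotypes, an intensity trend, an added offset of 50, left-out arrays and the authors' FDR. Values of 1 gene of the lists are not reported here.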

Additional observations from a re-analysis of the deposited data

How the results depend on the processing

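Gata4 kept its positive sign against both single heterozygotes and its limma adjusted p above 0.05 under all 7 settings of scaling, filter, block, fit and offset. The log2 difference was 0.56 to 0.72 against the Sox9 heterozygotes (adjusted p 0.0708 to 0.156) and 0.63 to 0.81 against the Pdx1 heterozygotes (adjusted p 0.0825 to 0.238), the lowest with an offset of 50, chosen after seeing the data. By the authors' deposited FDR the same log2 ratios of 0.72 and 0.81 pass. With 1 array left out the range was 0.53 to 0.85 (adjusted p 0.1004 to 0.262) and 0.63 to 0.94 (0.116 to 0.288). Gata6 ranged from 0.15 to 0.30 against the Sox9 heterozygotes and from -0.05 to 0.20 against the Pdx1 heterozygotes when 1 array was left out, and was negative without double-heterozygote replicate 3 (-0.0015) and without Pdx1-heterozygote replicate 1 (-0.046).

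The counts of genes that pass, which set the background, were fragile. Against the Sox9 heterozygotes, 57 became 92 without the dimmest 25% of genes, 3 with only those 2 genotypes in the fit, and 4 to 68 with 1 array left out (lowest without double-heterozygote replicate 1, and moved by over 1.5 times by each array but double-heterozygote replicate 2), while the authors' deposited table calls 4292. Against the Pdx1 heterozygotes, 20 became 43, 2, and 1 to 9, with 3199 in the authors' deposited table. Between Sox9 and Pdx1 heterozygotes, 43 became 4 to 71 with 1 array left out. The cause was not tested.

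Whether replicate numbers pair the samples was not settled. Deviations from genotype means correlated at -0.18 to 0.24 (mean 0.049) between same-numbered samples. Between samples of different number they correlated at -0.29 to 0.22 (mean -0.026). Double-heterozygote replicates 1 and 3 correlated best with their own number in both other genotypes, but not every sample did. With the replicate block, Gata4 had adjusted p of 0.0789 and 0.118 and Gata6 of 0.155 and 0.639 against the Sox9 and Pdx1 heterozygotes, and the counts were 57, 16 and 18. The low signal of Gata4 and 3 arrays per genotype limit what can be resolved.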

Other observations

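The measured genes next to Gata4 and Gata6 along their chromosomes were looked at after the main results were known, as the nearest 2 on each side in RefSeq order. Beside Gata4, the cathepsin gene Ctsb, the squalene synthase gene Fdft1 and Fam167a had log2 differences of 0.26, 0.13 and 0.28 against the Sox9 heterozygotes and 0.20, 0.01 and 0.34 against the Pdx1 heterozygotes, and none passed the limma fit. Tdh, a threonine dehydrogenase gene, had 608, 646 and 601 in double heterozygotes, 1276, 1239 and 1136 in Sox9 heterozygotes and 469, 421 and 527 in Pdx1 heterozygotes. It fell against the Sox9 heterozygotes by 0.98 on the log2 scale (limma adjusted p 0.00796), and was higher in Sox9 than in Pdx1 heterozygotes by 1.37 (adjusted p 0.000781), an order unlike that of Gata4. Beside Gata6, Abhd3, Mib1, Rbbp8 and Cables1 did not pass in any comparison. Mib1, a ubiquitin ligase gene of Notch signalling, had 12044, 10885 and 10818 in double heterozygotes, 16658, 14460 and 12913 in Sox9 heterozygotes and 12803, 12983 and 15222 in Pdx1 heterozygotes.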
